A study of Mus musculus with 27 samples.

Results

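Hoxa9, Hoxa10, Hoxa11 and Hoxa13 are the 4 posterior genes of the HoxA cluster, and they were followed here by their gene names through all 9 groups of the series. They make up 4 of the 23279 genes listed in the expression table. Hoxa2 to Hoxa7 lie on their anterior side. Libraries were made from mouse tissue and from limb bud-like tissue grown from embryonic stem (ES) cells, and 26 of the 27 deposited libraries were used. The left-out library, the second of E10.5 hindlimb bud, held values above 0 at only 2 of 1107 genes of chromosome 6, where the HoxA cluster lies.

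Embryonic groups came from Slc:ICR mice, with no transgene given in the labels. They were early forelimb bud (early FLB) and early hindlimb bud (early HLB), both labelled E10.0, forelimb bud (E10.5 FLB) and hindlimb bud (E10.5 HLB) at E10.5, and branchial arch (BA), heart tissue (Ca) and tail bud (TB), also at E10.5. The study itself gives the early FLB a younger embryonic day than the early HLB, against the shared label, so limb type and stage cannot be told apart in the early buds. The 2 ES-derived groups were forelimb bud-like (ES–FLB) and hindlimb bud-like tissue (ES–HLB), both from the EB5 line carrying the Hand2::GFP +/- reporter, collected on day 9 and sorted for Hand2::GFP. Both were started with BMP4 and matrigel. Retinoic acid was then added for ES–FLB and an antagonist of retinoic acid signalling for ES–HLB, and both were finished with hydrocortisone, the BMP inhibitor LDN193189 and Wnt3. Each group had 3 libraries except E10.5 HLB, which had 2 here. Because the sort, the culture and the strain all set the ES-derived groups apart from the embryonic ones, their parts in any difference between them cannot be told apart. ES-derived groups represent 1 reporter line. Nothing in the labels says that libraries of a group came from separate embryo pools or cultures, so the p-values measure only the spread between these libraries, which may be technical.

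Hox genes encode homeodomain transcription factors that specify position along the body axis, and they are switched on in the order in which they stand in their clusters. In the limb bud the posterior genes are used again along the axis from shoulder to digits. Group 9 and group 10 genes are needed for the upper limb segment and Hoxa11 with Hoxd11 for the middle segment, while Hoxa13 with Hoxd13 is needed for the hand and foot. Hoxa13 also restricts Hoxa11 to the region proximal to the future hand, together with transcription of an antisense RNA at the Hoxa11 locus.

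All 4 genes lie on the minus strand of chromosome 6 (GRCm38, RefSeq). Hoxa9 spans chr6:52223097-52227370, Hoxa10 chr6:52231197-52240854, Hoxa11 chr6:52242105-52245810 and Hoxa13 chr6:52258853-52260880, so that the set covers 37784 bases. The gaps between neighbouring genes measured 3826 bases from Hoxa9 to Hoxa10, 1250 bases from Hoxa10 to Hoxa11 and 13042 bases from Hoxa11 to Hoxa13. The antisense gene Hoxa11as (Hoxa11os in RefSeq) starts inside Hoxa11 on the plus strand at chr6:52245243-52249769 and shares 568 bases with it, so it also runs across the Hoxa11 promoter window.

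Promoter windows of 3 genes, each of 250 bases before a RefSeq start on the minus strand of GRCm38.p6, are printed as chosen examples. For Hoxa10, the inner start at chr6:52234940-52235189 is shown because it was the window with most matches, for Hoxa11 chr6:52245811-52246060 because the antisense gene crosses it, and for Hoxa13 chr6:52260881-52261130 because it had the highest GC content. Capitals mark matches to TATAAA or CCAAT on either strand.
Hoxa10: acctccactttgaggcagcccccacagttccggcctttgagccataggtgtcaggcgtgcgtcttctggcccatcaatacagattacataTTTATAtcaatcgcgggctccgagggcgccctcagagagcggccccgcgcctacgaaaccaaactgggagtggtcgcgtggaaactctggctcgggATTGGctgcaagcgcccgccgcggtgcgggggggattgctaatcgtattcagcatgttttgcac
Hoxa11: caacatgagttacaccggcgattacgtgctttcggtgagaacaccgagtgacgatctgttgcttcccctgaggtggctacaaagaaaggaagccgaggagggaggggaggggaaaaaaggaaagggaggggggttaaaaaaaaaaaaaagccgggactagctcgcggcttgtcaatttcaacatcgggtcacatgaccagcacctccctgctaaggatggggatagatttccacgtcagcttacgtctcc
Hoxa13: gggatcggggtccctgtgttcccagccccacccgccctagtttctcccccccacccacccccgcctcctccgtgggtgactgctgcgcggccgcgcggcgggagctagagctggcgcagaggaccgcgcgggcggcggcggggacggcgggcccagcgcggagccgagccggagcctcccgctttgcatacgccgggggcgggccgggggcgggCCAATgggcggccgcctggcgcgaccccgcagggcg
GC content was 59.2% in the Hoxa10 window, 52.0% in that of Hoxa11 and 80.0% in that of Hoxa13, against a median of 52.4% over all promoter windows of that length. The Hoxa9 window and the upstream Hoxa10 window had 49.6% and 51.6% GC, near that of Hoxa11. Like the Hoxa11 window, they held none of the 6 motifs searched. In the inner Hoxa10 window, ATTGG stood 64 and TTTATA 160 bases before the start, and in the Hoxa13 window CCAAT stood 36 bases before it. Both strands were searched. The motifs were TTTATG (named for Cdx factors, in 10.8% of 32817 windows), TTTACG (posterior Hox, 2.62%), TGACAG (Meis, 15.9%), AGGTCA (retinoic acid receptors, 14.0%), CCAAT (33.8%) and TATAAA (12.4%). A match is a description of the letters in a window and was not tested for binding.

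Library depth ranged from 5543752 to 22142168 reads, as recovered from the spacing of low values. The 6 early libraries were deeper (19642197 to 22142168 reads) than the other 20 (5543752 to 8541916 reads), so embryonic stage and library set cannot be told apart. A count of 3 reads, the limit that a count of 0 allows, corresponded to between 0.135 and 0.541 CPM (read counts scaled to a common total of 1000000), and this covers counting error only. All 5 limb mesenchyme markers were present in every limb and ES-derived group. They were also present in TB, BA and Ca, so presence alone does not set the limb groups apart. Their sums were 1284 to 1372 CPM in BA and 1112 to 1118 CPM in early FLB. The 3 cardiomyocyte markers summed to 3698 to 4469 CPM in Ca and the 3 branchial arch markers to 275 to 295 CPM in BA. Values below are CPM after scaling between libraries, and in these bulk samples fewer cells of a type and less RNA per cell cannot be told apart.

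Hoxa9 was measured at 38.3, 42.9 and 29.0 CPM in the early FLB libraries and at 68.9, 45.6 and 55.6 CPM in the early HLB libraries. At E10.5 it stood at 45.9, 52.0 and 52.5 CPM in FLB and at 48.7 and 42.1 CPM in HLB. The embryonic limb buds thus lay close together, with every early HLB library above every early FLB library and the E10.5 groups overlapping. ES–FLB gave 13.3, 12.6 and 11.1 CPM, while ES–HLB gave 35.1, 38.6 and 28.1 CPM. TB libraries held 38.3, 29.0 and 32.3 CPM, in the range of ES–HLB. ES–FLB was the lowest of the limb groups and overlapped none of them.

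Hoxa10 reached 22.4, 28.5 and 14.7 CPM in early FLB and 162, 113 and 136 CPM in early HLB. The E10.5 libraries held 183, 197 and 178 CPM in FLB and 227 and 207 CPM in HLB. Early FLB was therefore far below the other 3 embryonic limb groups, and E10.5 HLB was above all of them. ES–FLB was at 24.7, 20.5 and 23.3 CPM and ES–HLB at 97.5, 94.4 and 96.6 CPM. ES–FLB libraries fell inside the early FLB range, whereas ES–HLB libraries stayed below every early HLB library. In TB the gene stood at 83.0, 86.8 and 98.4 CPM.

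Hoxa11 was found at 23.6, 24.6 and 11.6 CPM in early FLB and at 113, 79.8 and 98.3 CPM in early HLB. E10.5 FLB gave 91.2, 101 and 79.8 CPM and E10.5 HLB 152 and 135 CPM. As for Hoxa10, early FLB was the low group and E10.5 HLB the high group among the embryonic limb buds. ES–FLB held 9.00, 10.4 and 7.92 CPM, below every early FLB library, and ES–HLB held 54.2, 54.8 and 49.6 CPM. TB libraries, at 51.6, 45.3 and 54.0 CPM, overlapped those of ES–HLB.

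Hoxa13 was close to the counting limit in early FLB, where 0.051, 0.150 and 0.052 CPM stood for 1, 3 and 1 reads. It was at 3.21, 3.64 and 2.89 CPM in early HLB, where 65, 70 and 53 reads were counted. The gene was thus present in every early HLB library and at or under the floor in every early FLB library. E10.5 FLB held 16.8, 13.6 and 15.5 CPM and E10.5 HLB 13.9 and 10.2 CPM. ES–FLB gave 0.608, 1.04 and 0.609 CPM, from 5, 8 and 5 reads, and ES–HLB gave 2.81, 3.28 and 3.35 CPM. In TB it stood at 11.6, 15.3 and 11.6 CPM, the range of the E10.5 limb buds.

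BA and Ca libraries had almost no reads from these genes. Hoxa10 and Hoxa13 were at 0 in all 6 libraries. Hoxa9 had 1 read, in Ca replicate 2, and Hoxa11 had 1 read in BA replicate 3 and 2 reads in Ca replicate 2. Taking 3 reads over the group as the floor, Hoxa10 was at least 182-fold higher in early FLB and at least 1807-fold higher in E10.5 HLB than in BA.

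**Figure D1:**
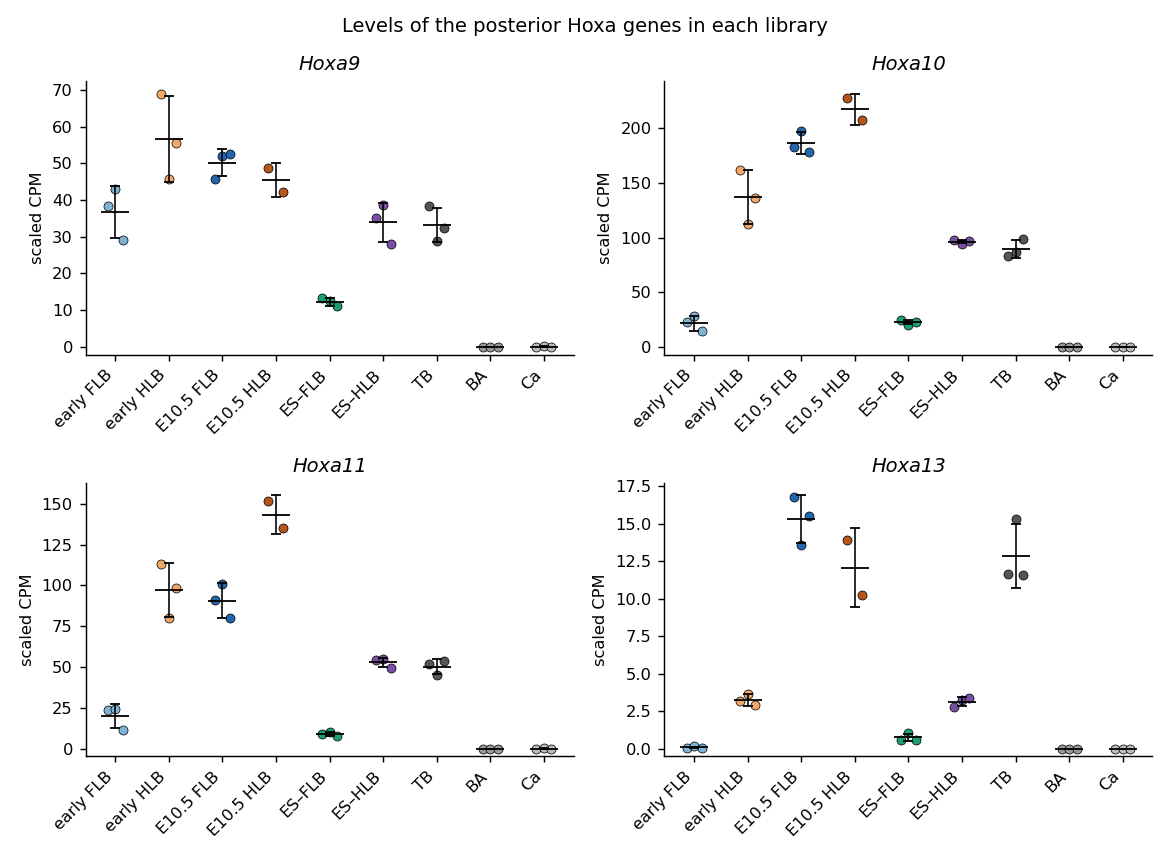
Level of each of the 4 genes in every library (scaled CPM, linear axes), with 1 point per library and the group mean with its SD as a bar. Early FLB and ES–FLB sit low for Hoxa10, Hoxa11 and Hoxa13, and BA and Ca sit at or near 0.

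Ranked by group mean, Hoxa9 levels ran from early HLB (56.7 ± 11.7 CPM, SD, n = 3) through E10.5 FLB, E10.5 HLB, early FLB, ES–HLB and TB to ES–FLB (12.3 ± 1.11 CPM, n = 3). Only the step from TB to ES–FLB passed the test among neighbouring limb and TB groups (limma adjusted p for the other 5 steps 0.155 to 0.826). The order for Hoxa10 was E10.5 HLB (217 ± 14.3 CPM, n = 2), E10.5 FLB (186 ± 9.98 CPM, n = 3), early HLB (137 ± 24.5 CPM), ES–HLB (96.2 ± 1.57 CPM), TB (89.4 ± 7.99 CPM), ES–FLB (22.8 ± 2.12 CPM) and early FLB (21.9 ± 6.91 CPM). Here limma did not separate ES–HLB and TB (adjusted p = 0.105) and ES–FLB and early FLB (adjusted p = 0.703). Hoxa11 went from E10.5 HLB (143 ± 11.8 CPM) through early HLB (97.0 ± 16.6 CPM), E10.5 FLB (90.6 CPM, range 79.8 to 101), ES–HLB (52.9 ± 2.86 CPM), TB (50.3 ± 4.49 CPM) and early FLB (19.9 ± 7.22 CPM) to ES–FLB (9.10 ± 1.24 CPM). Early HLB and E10.5 FLB (limma adjusted p = 0.635), and ES–HLB and TB (adjusted p = 0.373), were not separated. Hoxa13 was highest in E10.5 FLB (15.3 ± 1.60 CPM), TB (12.9 ± 2.12 CPM) and E10.5 HLB (12.1 ± 2.62 CPM), whose neighbouring differences did not pass. It was lower in early HLB (3.25 ± 0.378 CPM) and ES–HLB (3.15 ± 0.294 CPM), which did not differ beyond their spread, and lowest in ES–FLB (0.752 ± 0.248 CPM) and early FLB (0.0842 ± 0.0568 CPM). On CPM as deposited some neighbours changed places: early FLB came below TB for Hoxa9, E10.5 FLB above early HLB for Hoxa11 and ES–HLB above early HLB for Hoxa13. On that scale limma separated ES–HLB from TB for Hoxa10 (log2 difference 0.14, adjusted p = 0.0346) and E10.5 HLB from the next group, ES–HLB, for Hoxa9 (0.32, adjusted p = 0.0135), but not early HLB from ES–HLB for Hoxa10 (adjusted p = 0.0551).

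The first comparison asks how the posterior genes differ between the early hindlimb bud and the early forelimb bud. Hoxa10 was 6.26-fold higher in early HLB, a log2 difference of 2.65 (SE 0.29, limma adjusted p = 0.00503). Hoxa11 was 4.87-fold higher (log2 difference 2.31, SE 0.35, adjusted p = 0.0155). For Hoxa13 the fitted log2 difference was 2.68 (SE 0.20, adjusted p = 8.35e-06), but it passed the filter on low values through the HLB libraries alone and so had to differ. The depth-corrected ratio of its pooled reads, 188 against 5, was 39.7, with an exact counting interval from 16.7 to 124. Hoxa9 was 1.54-fold higher, and its log2 difference of 0.62 (95% interval 0.10 to 1.13) did not pass (adjusted p = 0.096). Of the 3 genes whose call the filter did not fix, 2 rose, where 20.3% of the 12503 genes tested were called, 9.35% as higher in HLB. Of all genes called, 46.0% were higher, or 61.8% on CPM as deposited. The median log2 difference was 2.31 over those 3 genes and -0.0035 over all genes tested. The Hoxa11 call was lost without early HLB replicate 1 or 3, when its adjusted p was 0.062 and Hoxa13 did not pass the filter, so that 1 gene was called. Summed surface epithelium markers, all 5 of them present, ranged from 300 to 394 CPM in early FLB and from 233 to 292 CPM in early HLB, and their part in the result was not tested.

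At E10.5 the difference between hindlimb and forelimb bud was smaller. Hoxa11 was 1.58-fold higher in HLB (log2 difference 0.66, SE 0.075, limma adjusted p = 9.32e-08) and Hoxa10 1.17-fold higher (0.22, SE 0.053, adjusted p = 0.00125). Hoxa9 showed a log2 difference of -0.14 (SE 0.089, adjusted p = 0.258) and Hoxa13 of -0.34 (95% interval -0.65 to -0.03, adjusted p = 0.106), and the libraries of both groups overlapped for each of them. Thus 2 of the 4 genes were called, both higher, against a background of 24.1% of 12867 genes, 12% as higher. Of the 3097 called genes 1549 were higher, while on CPM as deposited 31.0% were higher. Without E10.5 HLB replicate 1 the Hoxa10 call was lost (adjusted p = 0.0902) and Hoxa13 was called at -0.55 (adjusted p = 0.0299). Neither call held when all 26 libraries entered 1 model, where the adjusted p was 0.371 for Hoxa10 and 0.0573 for Hoxa11.

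In the ES-derived tissue the question is whether the forelimb and hindlimb protocols give different posterior Hoxa levels. All 4 genes were higher in ES–HLB. Hoxa11 was 5.81-fold higher (log2 difference 2.48, SE 0.10, limma adjusted p = 2.29e-18) and Hoxa10 4.21-fold higher (2.05, SE 0.075, adjusted p = 1.23e-19). Hoxa13 was 4.18-fold higher (1.56, SE 0.25, adjusted p = 1.71e-05) and Hoxa9 2.76-fold higher (1.42, SE 0.11, adjusted p = 1.19e-11). The background was 25.1% of 13132 genes called, 13.1% as higher in ES–HLB. Hoxa13 would not have passed the filter on low values without the ES–HLB libraries, so its call is no support. The median log2 difference was 2.05 over the other 3 genes and 0.0049 over all genes. These calls held without each of the 6 libraries in turn. Pou5f1 and Nanog, which mark pluripotent cells, together reached 4.55 to 7.92 CPM under the forelimb protocol and 19.3 to 30.8 CPM under the hindlimb protocol. Other summed markers were also lower in ES–FLB than in ES–HLB, at 8.57 to 12.7 against 21.5 to 27.1 CPM for the neural tube, 64.3 to 102 against 121 to 132 CPM for surface epithelium and 20.8 to 24.2 against 33.1 to 37.5 CPM for endothelium. Of the 3 neural tube markers, 2 were present under each protocol, while Pax6 was nearly absent (means of 0.041 CPM for forelimb and 0.133 CPM for hindlimb). That sum alone therefore does not show neural tube cells. Embryonic globins were lower in ES–FLB too, at 5.00 to 7.14 against 82.4 to 154 CPM. The part of these markers in the result was not tested.

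**Figure D2:**
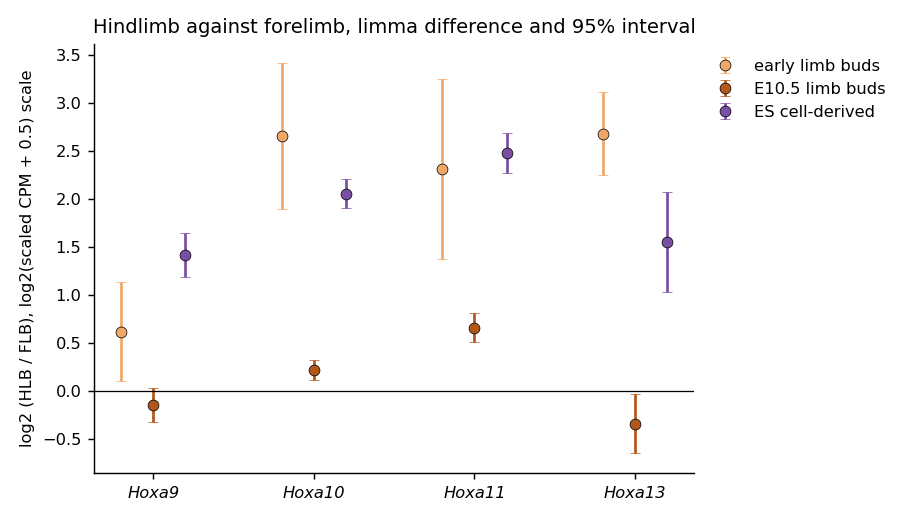
Log2 difference between hindlimb and forelimb for each of the 4 genes in the early buds, the E10.5 buds and the ES-derived tissue, as points with 95% intervals from limma around a line at 0. The early and ES-derived differences of Hoxa10 and Hoxa11 lie between 2.05 and 2.65, while those at E10.5 are 0.22 and 0.66.

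The change in this hindlimb-forelimb difference was itself tested. Between the early stage and E10.5 it shrank by 2.43 on the log2 scale for Hoxa10, with a fitted change of -2.43 (SE 0.35, limma adjusted p = 0.00293). The corresponding change was -1.65 for Hoxa11 (SE 0.43, adjusted p = 0.0326) and -3.02 for Hoxa13 (SE 0.27, adjusted p = 4.23e-07). For Hoxa9 it was -0.76 (SE 0.26, adjusted p = 0.0682). Hoxa13 was near 0 in early FLB, where it could not pass the filter on low values, so its change is given as a value only. Of the other 3 genes 2 were called, against 22.6% of 13244 genes, 10.7% in that direction. Of the called genes 52.7% were higher, or 28.9% on CPM as deposited. Leaving out 1 library at a time, the Hoxa11 call was lost in 7 of 11 fits, with its change ranging from -1.84 to -1.31. It held without any of the 3 early FLB libraries or early HLB replicate 2. The Hoxa9 change was called without early FLB replicate 2 (adjusted p = 0.0359) or early HLB replicate 2 (adjusted p = 0.0162).

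Between the ES-derived and the early embryonic tissue, the hindlimb-forelimb difference of Hoxa10 and Hoxa11 did not change by an amount that passed the test. It was -0.60 for Hoxa10 (SE 0.31, limma adjusted p = 0.221) and 0.17 for Hoxa11 (SE 0.38, adjusted p = 0.807). Hoxa9 had a larger difference in vitro, by 0.80 (SE 0.25, adjusted p = 0.043), and Hoxa13 a smaller difference in vitro, by -1.12 (SE 0.28, adjusted p = 0.00657). Hoxa13 was again below the filter in both forelimb groups, and of the other 3 genes 1 was called, against 22.7% of 13615 genes, 12.8% higher and 9.96% lower. Of the called genes 56.2% were higher, or 44.5% on CPM as deposited. The Hoxa9 call was lost in 9 of the 12 fits with 1 library left out, and held without early FLB replicate 3, early HLB replicate 1 or ES–HLB replicate 3. Without early FLB replicate 3 the Hoxa11 change was 0.51 (adjusted p = 0.0386).

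The next comparison is between stages. From early FLB to E10.5 FLB Hoxa9, Hoxa10 and Hoxa11 rose. Hoxa10 rose 8.52-fold (log2 difference 3.11, SE 0.27, limma adjusted p = 0.000577) and Hoxa11 4.55-fold (2.22, SE 0.35, adjusted p = 0.00514). Hoxa9 rose by a log2 difference of 0.46 (SE 0.13, adjusted p = 0.0136), a call lost without E10.5 FLB replicate 2 (adjusted p = 0.0599) or 3 (adjusted p = 0.0754). For Hoxa13, 269 reads at E10.5 against 5 in the deeper early libraries gave a depth-corrected ratio of 202 (counting interval 85.5 to 628), with a fitted log2 difference of 4.76 (adjusted p = 1.86e-12), but it passed the filter through the E10.5 libraries alone and so had to differ. The background was high, with 64.8% of 12767 genes called and 30.2% higher, and of those called 46.6% were higher, or 66.0% on CPM as deposited. Marker sums also moved between these stages, from 300 to 394 CPM in early FLB to 170 to 183 CPM in E10.5 FLB for surface epithelium, from 1112 to 1118 to between 1565 and 1597 CPM for limb mesenchyme, and from 9.35 to 20.04 to between 29.5 and 30.0 CPM for muscle precursors. Their part in the result was not tested.

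From early HLB to E10.5 HLB, Hoxa13 rose 3.72-fold (log2 difference 1.74, SE 0.19, limma adjusted p = 0.000186), Hoxa10 1.59-fold (0.68, SE 0.15, adjusted p = 0.0225) and Hoxa11 1.48-fold (0.57, SE 0.15, adjusted p = 0.0316). Hoxa9 had a log2 difference of -0.30 (SE 0.17, adjusted p = 0.219), and its libraries overlapped. So 3 of the 4 genes were called, where 28.8% of 12683 genes were called and 12.2% were higher, with 42.2% of the called genes higher, or 56.6% on CPM as deposited. The Hoxa10 and Hoxa11 calls were lost without early HLB replicate 3 and without E10.5 HLB replicate 1 or 3, at adjusted p from 0.0748 to 0.153, while Hoxa9 was called at -0.45 without early HLB replicate 2 (adjusted p = 0.0102). With Hoxa11 and its antisense gene summed, an alternative chosen after seeing the data, the Hoxa11 difference was 0.51 (adjusted p = 0.0539).

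ES-derived tissue was then compared with embryonic limb bud of the same limb type. Against early FLB, ES–FLB was lower for Hoxa9 (log2 difference -1.53, SE 0.13, limma adjusted p = 1.38e-07) and for Hoxa11 (-1.02, SE 0.31, adjusted p = 0.0232). Hoxa10 differed by 0.11 (95% interval -0.50 to 0.71, adjusted p = 0.703) and its libraries overlapped. Hoxa13 did not pass the filter on low values, and its 18 reads in ES–FLB against 5 in early FLB gave a depth-corrected ratio of 10.3 (counting interval 3.67 to 35.4). Of 3 genes tested 2 fell, against 82.1% of 13113 genes called and 41% lower, with 50.1% of the called genes higher, or 62.4% on CPM as deposited. Without ES–FLB replicate 1 or 3 the Hoxa11 call was lost (adjusted p = 0.0712 and 0.0969), and with the antisense gene summed in its difference was -0.76 (adjusted p = 0.0548).

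Against early HLB, ES–HLB was lower for Hoxa9 (log2 difference -0.72, SE 0.17, limma adjusted p = 0.00616), Hoxa10 (-0.49, SE 0.11, adjusted p = 0.00424) and Hoxa11 (-0.86, SE 0.11, adjusted p = 6.04e-05). Hoxa13 differed by -0.037 (95% interval -0.41 to 0.33, adjusted p = 0.851), and by 0.11 on CPM as deposited. The background was 78.6% of 13178 genes called and 38.9% lower, so that 3 of 4 is near the share of all genes called. Of the called genes 50.5% were higher, or 60.6% on CPM as deposited. On CPM as deposited the Hoxa10 difference was -0.33 (adjusted p = 0.0551).

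The ES-derived tissue was also compared with the E10.5 buds. All 4 genes were lower in ES–FLB than in E10.5 FLB, with Hoxa9 4.07-fold, Hoxa10 8.16-fold, Hoxa11 9.96-fold and Hoxa13 20.3-fold lower (limma adjusted p from 2.44e-23 to 6.73e-15). All 4 were also lower in ES–HLB than in E10.5 HLB, by 1.34-fold for Hoxa9, 2.26-fold for Hoxa10, 2.71-fold for Hoxa11 and 3.84-fold for Hoxa13 (adjusted p from 2.05e-18 to 0.00116). In the forelimb comparison Hoxa13 would not have passed the filter without the E10.5 libraries, so its call is no support. The fold thus increased from Hoxa9 to Hoxa13 in both limb types, an order whose steps were not tested. Its forelimb end is the Hoxa13 fold that is no support. Against the early buds the order was absent, at log2 differences of -0.72, -0.49, -0.86 and -0.037 from Hoxa9 to Hoxa13 in ES–HLB. In ES–FLB they were -1.53, 0.11 and -1.02 from Hoxa9 to Hoxa11. The backgrounds were 71.7% of 13174 genes, 36.3% lower, and 71.8% of 13366 genes, 34.8% lower. Beside these results, all 4 endothelial markers summed to between 231 and 321 CPM in embryonic limb buds and between 20.8 and 37.5 CPM in ES-derived tissue. The 3 embryonic globin genes summed to between 2178 and 6401 CPM in limb buds, 5.00 to 7.14 CPM in ES–FLB and 82.4 to 154 CPM in ES–HLB. Their part in the results was not tested.

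TB, in which the same genes are used in the body axis, held less Hoxa9, Hoxa10 and Hoxa11 than the E10.5 limb buds but a similar amount of Hoxa13. Against E10.5 FLB the log2 differences were -0.59 for Hoxa9 (limma adjusted p = 1.36e-06), -1.06 for Hoxa10 (adjusted p = 4.16e-16) and -0.84 for Hoxa11 (adjusted p = 3.49e-09). Against E10.5 HLB they were -0.45, -1.28 and -1.50, all called. With the antisense gene summed in, the Hoxa11 differences were -0.27 from FLB and -0.55 from HLB, both still called. Hoxa13 differed by -0.25 from FLB (adjusted p = 0.118) and by 0.09 from HLB (adjusted p = 0.681), with overlapping libraries in both. Without TB replicate 2 the former was -0.38 (adjusted p = 0.0365). In each case 3 of 4 genes fell, against 49.2% of 13105 genes called, 24.2% lower, and 42.7% of 13183 genes called, 21% lower. For HLB 50.9% of the called genes were higher, or 65.9% on CPM as deposited. The 4 tail bud progenitor markers summed to 210 to 251 CPM in TB and to at most 5.05 CPM in every other group.

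Within a library, ratios of 2 genes do not depend on the scaling between libraries. There were 0.585 ± 0.0787 units of Hoxa10 CPM per unit of Hoxa9 CPM in early FLB (SD, n = 3), 2.42 ± 0.0674 in early HLB, 3.73 ± 0.303 in E10.5 FLB and 4.79 ± 0.172 in E10.5 HLB. Among the limb, ES-derived and TB groups, early FLB was thus the only group with less Hoxa10 than Hoxa9. ES–FLB, at 1.86 ± 0.235, and ES–HLB, at 2.88 ± 0.503, had more Hoxa10 than Hoxa9. For Hoxa13 per Hoxa10 the mean ratio was 0.0037 in early FLB, 0.0244 in early HLB, 0.0825 in E10.5 FLB and 0.0554 in E10.5 HLB. It was 0.0338 in ES–FLB, 0.0327 in ES–HLB and 0.145 in TB. The means of the ES-derived groups lay close together, but that of ES–FLB rested on 18 Hoxa13 reads and its libraries ranged from 0.0246 to 0.0506. The early FLB ratio rested on 5 Hoxa13 reads. The mean of TB was the highest.

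**Figure D3:**
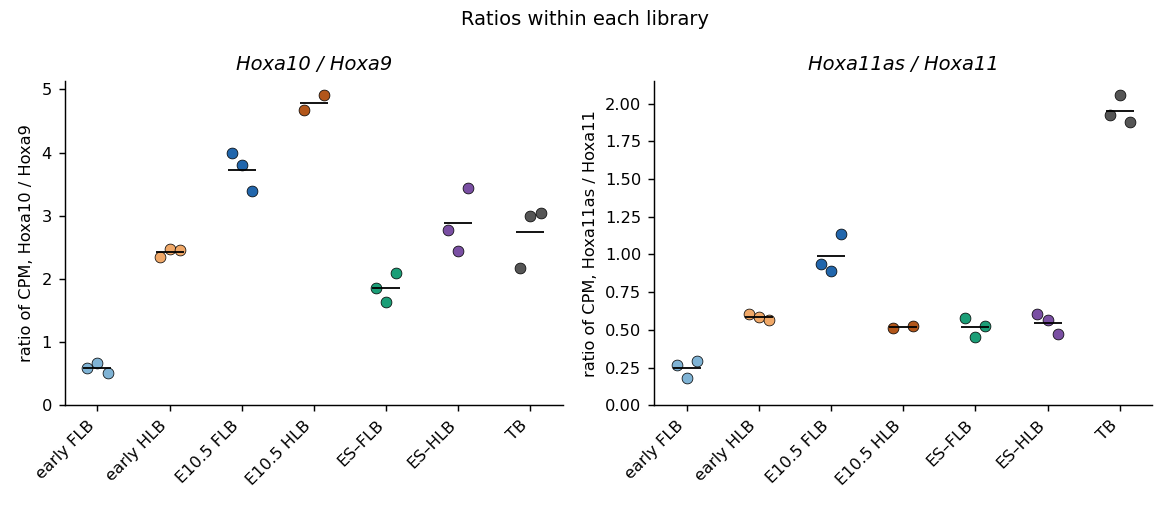
Ratio of Hoxa10 to Hoxa9 and of Hoxa11as to Hoxa11 within each library (CPM over CPM, linear axes from 0), with 1 point per library and the group mean as a bar, for the limb, ES-derived and TB groups. Hoxa10 over Hoxa9 lies lowest in early FLB, at a mean of 0.585, and Hoxa11as over Hoxa11 lies highest in TB, at a mean of 1.95. Reads shared by Hoxa11 and Hoxa11as were counted differently in the early libraries.

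To compare levels between genes, scaled CPM was divided by exon length in kilobases. On this scale Hoxa10 was the highest of the 4 genes in early HLB (43.6 CPM per kb), E10.5 FLB (59.3), E10.5 HLB (69.1), ES–HLB (30.6) and ES–FLB (7.27), with Hoxa11 next in each. In early FLB the order was Hoxa9 (11.4), Hoxa11 (8.71), Hoxa10 (6.96) and Hoxa13 (0.064). Hoxa9 made up 42.8% of the summed level of the 4 genes in early FLB, 24.4% in ES–FLB and between 9.07% and 16.5% in the other limb groups. The value of Hoxa13 per kb depends on its gene model, since the exon length used lacks the longer 3′ end of another annotation.

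Along the stretch of the cluster from Hoxa2 to Hoxa13, the 4 posterior genes held 26.4% ± 5.51 of the summed CPM per kb in early FLB (SD, n = 3) and 77.2% ± 2.10 in early HLB. The shares in the ES-derived groups were 15.6% ± 0.314 in ES–FLB and 72.2% ± 1.82 in ES–HLB. Forelimb and hindlimb groups were therefore far apart in the early buds and in the ES-derived tissue. At E10.5 the share was 74.6% ± 2.18 in FLB and 86.0% ± 1.05 in HLB, and in TB it was 60.7% ± 1.49. Hoxa5, which helps to pattern the neck and chest region, was the highest gene of the stretch in early FLB and in ES–FLB, at 32.2 and 31.7 CPM per kb, or 31.8% and 31.7% of the sum. Hoxa4 and Hoxa7 added 12.6% and 11.8% in early FLB, and Hoxa2 stood at 25.2 CPM per kb in ES–FLB.

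**Figure D4:**
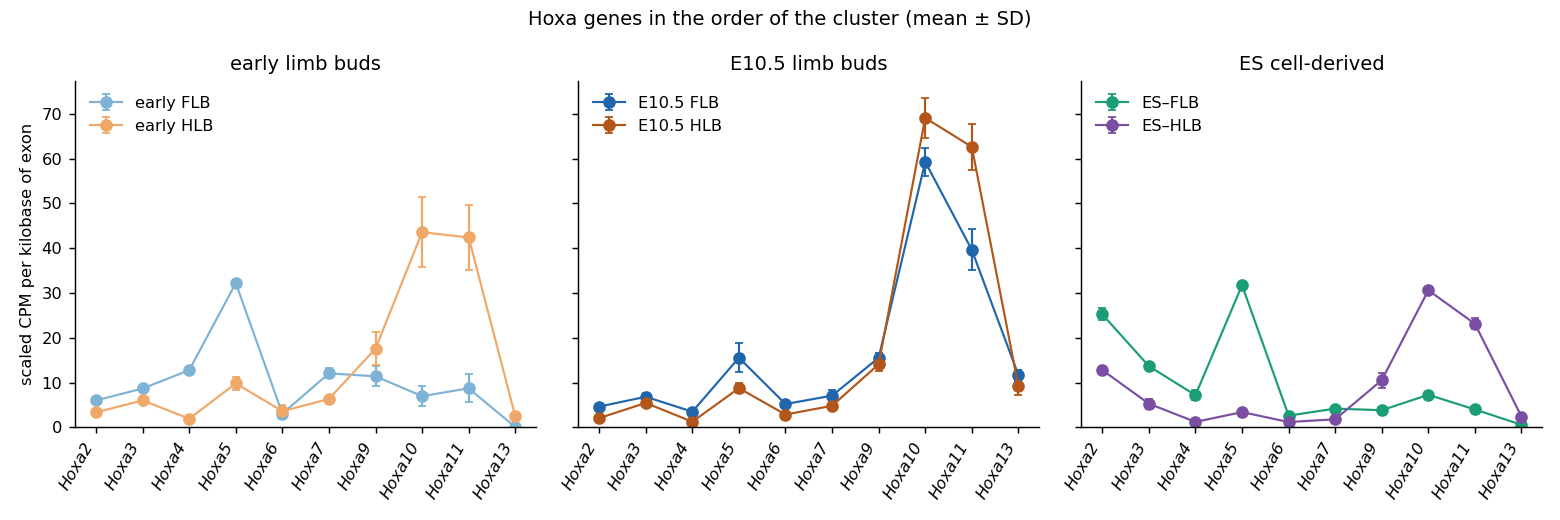
Level per kilobase of exon (CPM per kb) of the Hoxa genes in cluster order from Hoxa2 to Hoxa13, with the early buds, E10.5 buds and ES-derived tissue side by side and points for group means with SD bars. Early FLB and ES–FLB peak at Hoxa5, and the hindlimb groups and E10.5 FLB peak at Hoxa10.

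The anterior neighbours were compared between limb types in the same way. Among Hoxa2 to Hoxa7 and Evx1, which lies beyond Hoxa13, 0 rose and 5 of 7 tested fell in early HLB against early FLB. Hoxa4 was at 3.07 against 20.3 CPM (limma log2 difference -2.55) and Hoxa5 at 18.4 against 60.4 CPM (-1.70). Hoxa6 (0.20, adjusted p = 0.635) and Evx1 (0.86, adjusted p = 0.0535) had positive differences that did not pass. In ES–HLB against ES–FLB, 0 rose and all 6 tested fell, with Hoxa5 at 6.38 against 59.6 CPM (-3.13). Hoxa6 would not have passed the filter on low values there without the ES–FLB libraries, so it is no support. At E10.5, 0 rose and 5 fell, with Hoxa4 (-1.35) showing the largest called difference among those with at least 5 CPM, while Hoxa3 (-0.31, adjusted p = 0.103) and Evx1 (-0.18, adjusted p = 0.513) did not pass. All genes called were 20.3% in the early buds, 25.1% in ES-derived tissue and 24.1% at E10.5.

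Of 6 noncoding transcripts of the posterior cluster that were listed, only Hoxa11as and Hoxaas3 (2700086A05Rik) were found by name in the table. Hoxa11as, the antisense transcript at the Hoxa11 locus, followed Hoxa11 between limb types in the early and ES-derived tissue but not at E10.5. It was at 6.24, 4.44 and 3.38 CPM in early FLB and at 67.9, 46.7 and 55.2 CPM in early HLB (log2 difference 3.48, limma adjusted p = 0.00018). In ES–FLB it was at 5.23, 4.68 and 4.14 CPM and in ES–HLB at 32.8, 31.0 and 23.4 CPM (2.50). In both settings the groups did not overlap. At E10.5 it was at 85.4, 89.6 and 90.8 CPM in FLB and at 77.8 and 70.5 CPM in HLB, lower in HLB by a log2 difference of -0.26 (adjusted p = 0.004) while Hoxa11 was higher. Per unit of Hoxa11 it reached 0.245 ± 0.0577 in early FLB (SD, n = 3), 0.987 ± 0.132 in E10.5 FLB and 1.95 ± 0.0924 in TB, and between 0.518 and 0.583 in the other limb and ES-derived groups. Reads shared by the 2 genes were counted differently in the early libraries, as described next. Early ratios may therefore not compare directly with the others, and the part of the counting in them was not tested.

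How reads in the overlap of Hoxa11 and Hoxa11as were counted differed between library sets. In all 6 early libraries the values of both genes stood for numbers of reads that were not whole, 0.0742 to 0.449 from the nearest whole number for Hoxa11, while their sums were whole to within 0.0352. In the other 20 libraries Hoxa11 was whole in each, with a tolerance of 0.05 reads. Library preparation kept strand, but the strand setting of the counting is not given in the sources used here. The sum of both genes was 24.6 ± 8.35 CPM in early FLB, 154 ± 27.1 in early HLB, 179 ± 10.2 in E10.5 FLB and 217 ± 17.0 in E10.5 HLB (n = 2). It was 13.8 ± 1.55 CPM in ES–FLB, 81.9 ± 7.81 in ES–HLB and 148 ± 8.79 in TB. With the sum in place of Hoxa11, the hindlimb-forelimb differences were 2.67 in early buds (limma adjusted p = 0.0093), 0.28 at E10.5 (adjusted p = 7.58e-05) and 2.53 in ES-derived tissue (adjusted p = 1.12e-19), so the direction and the calls were those of Hoxa11 alone.

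The posterior genes of the other 3 clusters, Hoxb9 to Hoxd13, share ancestry and function with these genes. In early HLB against early FLB 6 of 9 tested rose and 1 fell, the latter being Hoxd9, at 64.0 against 172 CPM. The background was 20.3% of all genes called, 9.35% as higher. Hoxc10, Hoxc11 and Hoxd12 passed the filter through the HLB libraries alone and so had to differ. Hoxc10, a gene of the hindlimb, stood at 104 against 0.118 CPM, Hoxd12 at 16.0 against 0.119 CPM and Hoxd11 at 34.9 against 2.13 CPM. In ES–HLB against ES–FLB 7 of 9 rose and 0 fell, with Hoxd13, the partner of Hoxa13 in the hand and foot, at 12.3 against 1.79 CPM (limma log2 difference 2.48), where 25.1% of all genes were called and 13.1% were higher. Of the genes tested, Hoxc11, Hoxd10, Hoxd11 and Hoxd12 would not have passed the filter without the ES–HLB libraries, so they are no support. At E10.5 4 of 10 rose and 6 fell, against 24.1% of all genes called and 12% higher. Hoxc9 and Hoxc11 would not have passed the filter there without the HLB libraries, so they are no support. Hoxc10 remained high in HLB, at 135 against 1.48 CPM, while Hoxd13 was at 74.6 CPM in HLB and 158 CPM in FLB.

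**Figure D5:**
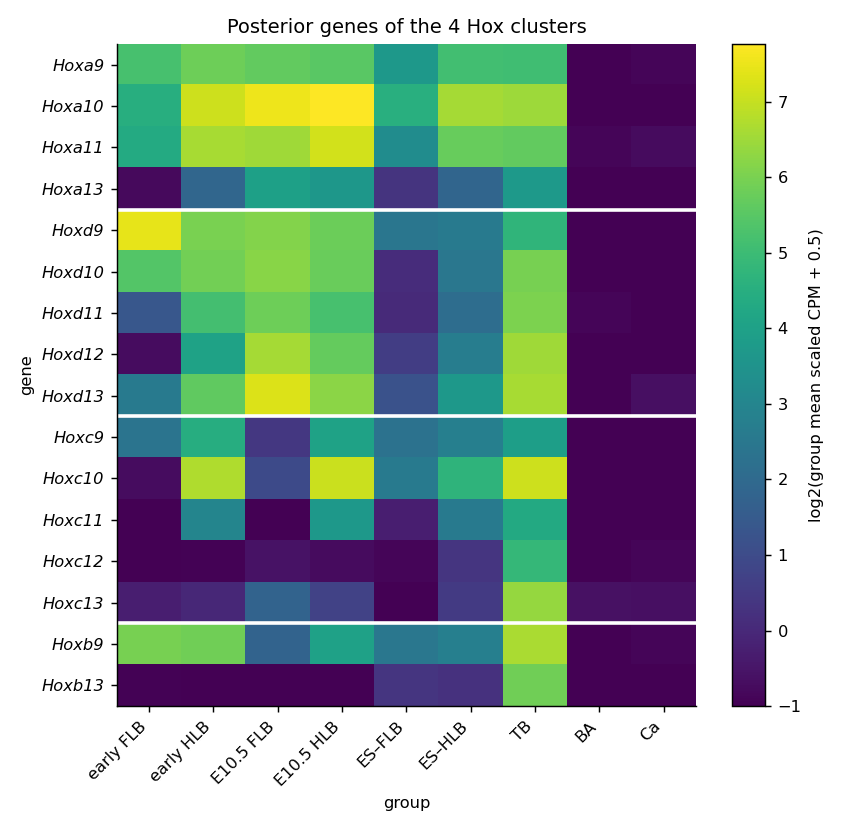
Group means of the 4 posterior Hoxa genes and of the posterior genes of the other clusters in the 9 groups, as shades of log2(scaled CPM + 0.5) from dark (low) to light (high). In ES–HLB the Hoxd genes are at means of 3.93 to 12.3 CPM, while Hoxa10 is at 96.2 CPM, and BA and Ca are dark throughout.

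The same paralogs were compared between ES-derived tissue and early buds. Against early FLB, 5 of 7 paralogs tested fell in ES–FLB and 1 rose, with Hoxd9 at 4.94 against 172 CPM (limma log2 difference -4.99), where 82.1% of all genes were called and 41% were lower. Hoxd10 and Hoxd11 passed the filter on low values through the early FLB libraries alone, and Hoxc10 through the ES–FLB libraries alone. These genes had to differ and are no support. Against early HLB, 8 of 9 fell in ES–HLB and 0 rose, with Hoxd9 at 5.44 against 64.0 CPM (-3.45) and Hoxd10 at 5.03 against 59.4 CPM (-3.45), where 78.6% of all genes were called and 38.9% were lower. On the same scale Hoxa11 fell by 0.86 in that comparison. The hindlimb-forelimb difference of Hoxc10 changed by -5.29 from early buds to ES-derived tissue. Its early FLB level stood for 2, 3 and 2 reads, below the filter on low values, so this change is given as a value only.

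Of other genes tied to posterior Hox function, Shox2, needed for the upper limb segment, was higher in HLB in the early buds (32.5 against 7.77 CPM) and in ES-derived tissue (57.0 against 10.7 CPM), but lower in HLB at E10.5 (68.4 against 94.3 CPM, limma log2 difference -0.46, adjusted p = 4.77e-07). Its early call was lost without early FLB replicate 2 (adjusted p = 0.0504) or early HLB replicate 3 (adjusted p = 0.0642). The counts that follow stand beside 20.3% of all genes called in early HLB, 25.1% in ES–HLB and 24.1% in E10.5 HLB, each against its forelimb group. Shox2 belongs to a list of 8 genes that depend on Hoxa13 or Hox11 proteins in mutants, of which 2 of 7 tested rose and 1 fell in early HLB, 3 rose and 4 fell in ES–HLB, and 1 rose and 5 fell in E10.5 HLB. Aldh1a2, which makes retinoic acid, was at 169 CPM in ES–FLB but only 30.9 CPM after the hindlimb protocol (limma log2 difference -2.43). At E10.5 it was higher in HLB (1.45, adjusted p = 2.33e-09). Among 7 tested cofactors of Hox proteins 0 rose and 1 fell in early HLB, which was Pbx3 (log2 difference -0.27). In ES–HLB 0 of 8 cofactors rose and 3 fell, with Meis1 at 164 against 253 CPM. Among upstream regulators, Cdx1 was at 8.55 CPM in early HLB and 46.3 CPM in early FLB (log2 difference -2.37), and 1 regulator of 10 rose and 2 fell. At E10.5 2 of 10 regulators rose and 2 fell, and 3 of 8 cofactors rose and 1 fell. In ES–HLB 1 of 9 regulators rose and 1 fell. Among the distal limb signals 1 of 5 rose and 1 fell in early HLB, 4 of 6 rose and 1 fell at E10.5, and 2 of 5 rose and 2 fell in ES–HLB. In the ES-derived comparison Fgf4 would not have passed the filter on low values without the ES–HLB libraries, nor Shh without the ES–FLB libraries, so they are no support. Fgf8 from the ridge at the bud's edge was higher in HLB in early buds (log2 difference 0.88) and at E10.5 (0.95), and Fgf10, a signal from the mesenchyme to that ridge, was lower in early HLB (-0.48) and higher in E10.5 HLB (0.31, adjusted p = 0.0133). From early FLB to E10.5 FLB, Shh rose by a log2 difference of 3.65 and Cyp26b1, which degrades retinoic acid, by 2.06. Between those groups 64.8% of all genes were called, 30.2% as higher. Shh would not have passed the filter on low values without the E10.5 FLB libraries, so its rise is given as a value only.

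Likeness of pattern was measured as Pearson's r of group means on the log2 scale over the 9 groups, among 12383 genes with at least 5 CPM in a group, and is given as a description. Hoxa10 and Hoxa11 had an r of 0.994, and Hoxa9 had 0.971 with Hoxa10 and 0.973 with Hoxa11. Hoxa13 stood further off, at 0.717 with Hoxa9, 0.842 with Hoxa10 and 0.832 with Hoxa11. Outside the 4, the genes most like Hoxa13 were Hoxd12 (0.993), Hoxd13 (0.938) and Hoxa11as (0.933). For Hoxa10 they were Hoxa11as (0.967), Entpd7 (0.941) and Zic2 (0.939), and for Hoxa11 they were Hoxa11as (0.966), Zic2 (0.960) and Zic5 (0.946). For Hoxa9 they were 4930420K17Rik (0.954), Hoxa7 (0.940) and Mira (0.938). A high r did not mean the same order of limb types. Hoxa7 was at 24.2 CPM in early FLB and 12.7 CPM in early HLB, and Mira at 20.8 and 10.3 CPM, while the mean of Hoxa9 was higher in early HLB. Entpd7 was nearly level, from 10.8 CPM in Ca to 14.3 CPM in E10.5 FLB. The groups share libraries and depth across all genes, and BA and Ca, both near 0, weigh on each r.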

How the data were processed

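RNA was measured by sequencing in 27 libraries of 9 groups, 26 of which were used. Per the labels and the study's methods, stranded poly(A) libraries were read single-end, checked with FastQC 0.11.5, and aligned with HISAT2 2.0.4 to mm10. Cuffdiff (Cufflinks 2.1.1 in the labels) estimated counts per gene, which the authors passed to edgeR 3.16.2 for their own tests. The strand setting of the counting is not given in the sources used here. The deposited values are CPM: each library sums to 1000000 over 23279 genes as the authors deposited it, although low values stand close to whole reads (95.7% to 99.5% of low values lie within 0.1 read of a whole number). Depth was read from that spacing.

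CPM were rescaled over the 26 libraries by a trimmed mean of log ratios (30% of ratios and 5% of intensities trimmed from each end, unweighted). Genes with at least 1 CPM in 3 libraries, or in 2 where a group had 2, were tested with limma 3.58.1 (trend and robust) on log2(scaled CPM + 0.5), so fold changes of low genes are understated. Fits used the groups compared, p-values were adjusted by the method of Benjamini and Hochberg over all genes tested, and the threshold was 0.05. The fits were tested on simulated data with known changes. Folds given as "fold" are ratios of group means. Ratios of pooled reads carry exact 95% intervals that, like the floor of 3 reads, cover counting error only. No per-sample column of another series was in the table (0 columns).

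The 4 genes and all gene lists were chosen with earlier results of these data known, and some listed genes are not reported here. The named genes are the 4 in every comparison, and of each list up to 4 genes past the threshold with the largest change and a group mean of at least 5 CPM. All posterior paralogs and the neighbours Hoxa2 to Hoxa7 may be given by level, as may the 3 genes most like each of the 4. Alternatives were CPM as deposited, pseudocounts of 0.1 and 1, no filter, a filter of 5 CPM, 1 model over all 26 libraries, a replicate block, limma without trend and robust, leaving out each library in turn and, added after seeing the data, Hoxa11 summed with Hoxa11as. Promoter sequences and gene positions are from RefSeq (GRCm38.p6), and exon lengths from GENCODE. Python 3.11.15, R 4.3.3, numpy 2.4.6, pandas 2.3.3 and matplotlib 3.10.9 were used.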

Additional observations from a re-analysis of the deposited data

Results flagged for a closer look

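For 5 values the difference between hindlimb and forelimb was not the same in 2 settings, by a test of the change itself in limma. From the early buds to E10.5 it changed by -2.43 on the log2 scale for Hoxa10 (adjusted p = 0.00293), by -1.65 for Hoxa11 (adjusted p = 0.0326) and by -3.02 for Hoxa13 (adjusted p = 4.23e-07). In each of these the early difference was the larger, with Hoxa10 at 21.9 and 137 CPM in early FLB and HLB and at 186 and 217 CPM at E10.5. From the early buds to the ES-derived tissue it changed by 0.8 for Hoxa9 (adjusted p = 0.043) and by -1.12 for Hoxa13 (adjusted p = 0.00657). For Hoxa13 the early FLB value rests on 5 reads, below the filter on low values, so its changes are given as values only. The Hoxa11 change at E10.5 lost its call without early HLB replicate 1 or 3, or without any 1 of the E10.5 FLB libraries. The Hoxa9 change in vitro lost its call in 9 of the 12 fits with 1 library left out. In the early buds limb type and stage cannot be told apart. The early libraries were deeper than the others, and the part of depth in these values was not tested.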

How the results depend on the processing

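Over the planned settings other than leaving out a library, 386 of 404 values of the 4 genes kept their direction and their side of the threshold, 10 lost a call, 6 gained one and 2 turned in direction. For listed genes, over all planned settings with leaving out a library included, 3778 of 3962 values kept both, 184 lost a call and 0 turned. The cause of each change below was not tested, and all tests are limma's on the log2 scale. With all 26 libraries in 1 model, Hoxa9 in early HLB against early FLB passed at 0.62 (adjusted p = 0.0029), while at E10.5 Hoxa10 (0.22) and Hoxa11 (0.66) did not, leaving 0 of the 4 genes called there by that model. Under it Hoxa11 from early to E10.5 HLB did not pass (0.57), and the changes of the hindlimb-forelimb difference passed for Hoxa10 in vitro (-0.60) and for Hoxa9 at E10.5 (-0.76). Without trend and robust, calls were lost for Hoxa10 at E10.5 (0.22, leaving 1 gene called), Hoxa11 from early to E10.5 HLB (0.57), Hoxa9 in ES–HLB against E10.5 HLB (-0.42), Hoxa9 in TB against E10.5 HLB (-0.45) and the in vitro change of Hoxa9 (0.80, leaving 1 gene called). Genes called then numbered 788 in place of 3097 at E10.5 and 2306 in place of 3659 from early to E10.5 HLB. On CPM as deposited, Hoxa10 in ES–HLB against early HLB (-0.33) and the in vitro change of Hoxa9 (0.75, leaving 1 gene called) did not pass, the change of Hoxa9 at E10.5 passed (-0.86), and Hoxa13 in ES–HLB against early HLB was 0.11 in place of -0.037. That scaling moved the median of all genes to 0.14 for E10.5 FLB against early FLB, 0.23 for ES–FLB against early FLB, 0.18 for ES–HLB against early HLB and 0.13 for ES–HLB against E10.5 HLB. Without a filter the change of Hoxa9 at E10.5 passed (-0.76), and with at least 5 CPM 1 gene was called for the in vitro change. With Hoxa11 and Hoxa11as summed, an alternative chosen after seeing the data, Hoxa11 differences were 0.51 from early to E10.5 HLB and -0.76 in ES–FLB against early FLB, neither passing, and the in vitro change was -0.14 in place of 0.17 (neither called). The planned count test was not run, because the deposited values are not all whole reads.

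Replicate numbers did not pair the libraries: deviations of same-numbered libraries correlated between -0.0888 and 0.0999, and in 0 of 15 pairs of groups was every correlation above 0.1. With the replicate block, Hoxa9 from early to E10.5 HLB passed at -0.45, and Hoxa13 in TB against E10.5 HLB was -0.037 (adjusted p = 0.897) in place of 0.09. Genes called under the block numbered 2306 in place of 2541 for early HLB against early FLB and 3893 in place of 3294 for ES–HLB against ES–FLB.

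Leaving out 1 library at a time, 287 of 328 values of the 4 genes kept direction and side, 29 lost a call, 6 gained one and 6 turned. In early HLB against early FLB, Hoxa11 ranged from 1.97 to 2.50, with 1 to 3 genes of the 4 called and 1376 to 2284 genes called in all, with 1376 without early FLB replicate 1, 1556 without early HLB replicate 3 and 1664 without early FLB replicate 3. Hoxa13 was not tested where a library of the only group above the filter was left out, which lowers the count. At E10.5, Hoxa10 ranged from 0.15 to 0.29 and Hoxa13 from -0.55 to -0.12. For E10.5 FLB against early FLB, Hoxa9 ranged from 0.30 to 0.58 (2 to 4 genes called). For E10.5 HLB against early HLB the ranges were -0.45 to -0.15 for Hoxa9, 0.55 to 0.80 for Hoxa10 and 0.44 to 0.69 for Hoxa11 (1 to 4 genes called, 1695 to 4378 in all, with 1695 without E10.5 HLB replicate 3, 1792 without E10.5 HLB replicate 1 and 2195 without early HLB replicate 3). For ES–FLB against early FLB they were -0.15 to 0.32 for Hoxa10, negative only without early FLB replicate 3, and -1.36 to -0.84 for Hoxa11 (1 to 2 genes called). Hoxa13 ranged from -0.11 to 0.037 in ES–HLB against early HLB (positive without early HLB replicate 2 and, at 0.031, without ES–HLB replicate 1), from -0.38 to -0.18 in TB against E10.5 FLB and from -0.12 to 0.30 in TB against E10.5 HLB (negative without E10.5 HLB replicate 3 and, at -0.037, without TB replicate 2). The in vitro change of the hindlimb-forelimb difference ranged from 0.66 to 0.96 for Hoxa9 and from -0.017 to 0.51 for Hoxa11 (1 to 3 genes called), negative only without early FLB replicate 2 and called only without early FLB replicate 3. The change at E10.5 ranged from -0.90 to -0.60 for Hoxa9 and from -1.84 to -1.31 for Hoxa11, with 1980 (without E10.5 HLB replicate 1) to 3016 genes called in all. Leaving out an E10.5 HLB library left 1, which was assumed to vary like the other groups in the fit. Depth limits Hoxa13 most, with 5 reads in early FLB and 18 in ES–FLB.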

Other observations

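Ratios and levels of further Hox genes in TB were as follows. Per unit of Hoxa10, Hoxa13 was at 0.145 in TB and at 0.0554 to 0.0825 in the E10.5 limb buds, and Hoxa11as exceeded Hoxa11 by a ratio of 1.95 ± 0.0924 (SD, n = 3). TB also held Hoxb13 at 57.4 CPM, Hoxc13 at 82.9 CPM and Hoxc10 at 137 CPM, the last beside 135 CPM in E10.5 HLB and 104 CPM in early HLB, with Cdx2 at 29.5 CPM and Cdx4 at 25.3 CPM, both of which encode activators of posterior Hox genes in the body axis.

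Among genes expressed below 500 reads, 4.75% to 5.50% of values were not within 0.1 of a whole number of reads in the 6 early libraries, against at least 0.684% and below 1% in the other 20. These values are given without a test.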
